A study of Mus musculus with 8 samples.

Results

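The 8 genes described here encode the opioid receptors and the precursors of the opioid peptides. The receptors were Oprm1 (mu), Oprd1 (delta), Oprk1 (kappa) and Oprl1 (nociceptin receptor), and the precursors were Penk (proenkephalin), Pdyn (prodynorphin), Pnoc (prepronociceptin) and Pomc (proopiomelanocortin). They were taken by symbol from the 18939 genes of the count table, and all 8 were found. RNA was purified by translating ribosome affinity purification (TRAP), in which ribosomes carrying the EGFP-L10a fusion protein are pulled down with anti-GFP antibodies, from dissections aimed at the paraventricular nucleus of the thalamus (PVT). All mice carried Cre recombinase inserted into the Oprm1 gene together with a Cre-dependent EGFP-L10a allele at Rosa26, on a C57Bl/6J background, and were 8 to 12 weeks old at the start. The morphine group drank morphine, raised stepwise to 0.5 mg/ml, in 0.2% saccharin over 11 days, and the control group drank 0.2% saccharin alone. Each of the 4 control libraries (replicates 1 and 2 male, 5 and 6 female) and 4 morphine libraries (replicates 3 and 4 male, 7 and 8 female) pooled tissue of 2 mice of the same sex by the study's protocol. Tagging follows the activity of the Oprm1 locus and marks cells that express the mu-opioid receptor in whatever part of the dissection they lie, and a cell that used the locus earlier in life stays tagged.

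Opioid receptors are receptors coupled to inhibitory G proteins, which lower cyclic AMP, open inwardly rectifying potassium channels and close calcium channels. Morphine acts mainly at the mu receptor. The endogenous ligands are cut from large precursors by prohormone convertases at pairs of basic residues. Enkephalins act mainly at delta and mu receptors, dynorphins at the kappa receptor, beta-endorphin (from Pomc) at the mu and delta receptors, and nociceptin at the nociceptin receptor, which binds classical opioids poorly. The midline thalamus is known for dense mu-opioid receptor expression, whereas Penk and Pdyn are hallmark transcripts of striatal projection neurons.

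The sequences that set the precursors apart are the short coding stretches of the peptide cores. In the coding sequences of the GENCODE M21 transcripts (GRCm38) matched to the counted RefSeq transcripts, the Met-enkephalin core was found 6 times in Penk and 1 time in Pomc, and the Leu-enkephalin core 1 time in Penk and 3 times in Pdyn. Pnoc held neither and instead held 1 copy of the start of nociceptin. In the lines that follow, which show 6 of these stretches, the 15 bases of the core are in capitals, with 9 bases before and 6 bases after it in lower case, 5′ to 3′ on the transcript.
Penk, first Met-enkephalin core, bases 632 to 646 of the transcript: gccaagaagTACGGAGGCTTCATGaaacgg
Penk, Leu-enkephalin core, bases 1025 to 1039: cagaagaggTATGGGGGCTTCCTGaagcgc
Pdyn, first Leu-enkephalin core, bases 699 to 713: gccaaacgcTATGGCGGCTTTTTGcgcaaa
Pdyn, the third Leu-enkephalin core, bases 864 to 878: cagaagcgcTATGGTGGTTTCCTGcggcgt
Pomc, Met-enkephalin core, bases 762 to 776: gacaagcgtTACGGTGGCTTCATGacctcc
Pnoc, start of nociceptin, bases 468 to 482: cagaaaaggTTTGGGGGCTTCACCggggcc
The 6 bases just before each core are 2 codons for basic residues, where the precursor is cut. In Pomc the Met-enkephalin core is the start of beta-endorphin, and no such codons follow it directly. Among 22500 genes with a coding sequence in the annotation, any in-frame spelling of the Met-enkephalin core occurred in 2 genes (0.00889%), which were Penk and Pomc, that of the Leu-enkephalin core in 9 (0.0400%) and that of the nociceptin start in 4 (0.0178%).

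The 8 genes lie on 6 chromosomes of GRCm38. Oprm1 spans chromosome 10 from 6758593 to 7038209, Oprd1 chromosome 4 from 132110188 to 132144486, Oprk1 chromosome 1 from 5588450 to 5606134 and Oprl1 chromosome 2 from 181715000 to 181720985. Penk spans chromosome 4 from 4133536 to 4138815, Pdyn chromosome 2 from 129686549 to 129699938, Pnoc chromosome 14 from 65400673 to 65425564 and Pomc chromosome 12 from 3954945 to 3960643. The table held 1 row for 6 of them and 2 rows with identical counts for Oprk1 and for Pnoc, of which 1 was kept. Oprm1 was represented by a single transcript, NM_001039652. The gene overlaps Gm10945 and Ipcef1, and Penk overlaps A830012C17Rik. Ipcef1 averaged 32.2 ± 17.9 CPM (SD over 4 libraries) with saccharin and 30.5 ± 13.1 CPM (SD over 4 libraries) with morphine, with its highest value, 58.0 CPM, in control replicate 6, where Oprm1 was not highest. Whether the counting used the strand is not given in the sources used here, so reads of overlapping genes may not have been told apart.

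Libraries held between 31151106 and 47582947 counts with 1 row per gene. Values are CPM, the deposited counts scaled to a common library size by edgeR's TMM method. Control replicate 5, labelled female, held reads of 4 Y-linked genes (28.7% to 35.8% of the average male CPM), which its label does not account for, together with 66 counts of the female-specific Xist, against 45 to 170 in the other female libraries and 0 in the male libraries. The labelled tissue was borne out by its leading markers: Tcf7l2, a transcription factor of thalamic neurons, had between 686 and 1359 CPM and Calb2 (calretinin), which marks the midline thalamus, between 217 and 683 CPM. The summed CPM of 16 thalamic markers was 3000 to 4108 in the control libraries and 2227 to 3768 in the morphine libraries. Markers of GABAergic neurons were also high, led by Gad2 and Gad1, with a summed 1205 to 1618 CPM in the control group and 936 to 1482 in the morphine group.

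Transcripts of all 4 receptors and all 4 precursors were counted in every library. No library of untagged or input RNA was analysed here, so the share carried over from other cells was not measured. To compare genes, CPM was divided by the length of the transcript in kilobases. Among the receptors, the nociceptin receptor gene Oprl1 was the highest in 8 of 8 libraries and made up 53.8% to 65.0% of the summed CPM per kilobase of the 4 receptors (median 58.9%). The mu receptor gene Oprm1 came second in 8 of 8 libraries, with 24.6% to 39.4%. The kappa receptor gene Oprk1 held 4.64% to 7.04% and the delta receptor gene Oprd1 2.11% to 8.73%, and their order changed between libraries. Among the precursors, Penk was the highest in 8 of 8 libraries, with 53.9% to 91.8% of the summed CPM per kilobase when 1 row per gene was kept, and Pnoc the second, with 5.02% to 37.4%. Pdyn held 2.47% to 5.13% and Pomc 0.682% to 4.66%.

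**Figure D1:**
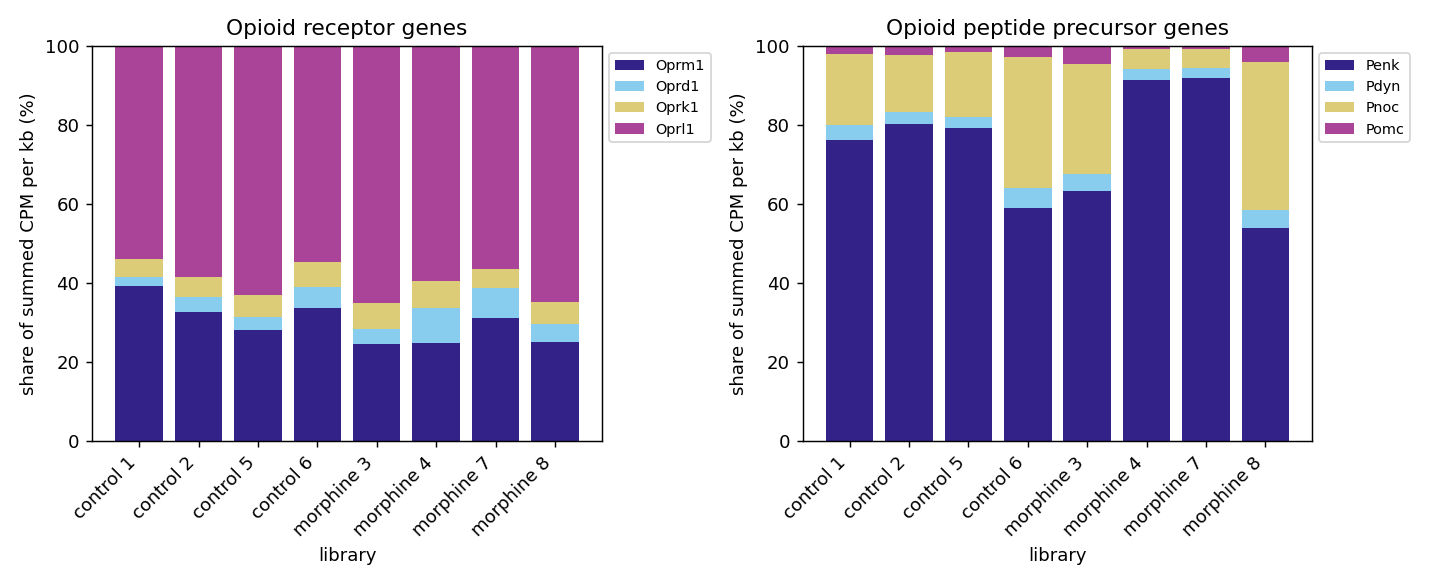
Share (%) of each gene in the summed CPM per kilobase of the 4 receptor genes (left) and the 4 precursor genes (right), 1 bar per library. Oprl1 and Oprm1 fill most of each receptor bar in the same order, while the share of Penk runs from 53.9% in morphine replicate 8 to 91.8% in morphine replicate 7.

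Over the 8 libraries, mean levels per kilobase ran from Penk (46.0 CPM per kb, SD 39.8) through Oprl1 (16.8, SD 2.96), Oprm1 (8.63, SD 2.76), Pnoc (7.27, SD 2.67), Pdyn (1.75, SD 0.967), Oprk1 (1.6, SD 0.250) and Oprd1 (1.35, SD 0.470) to Pomc (0.936, SD 0.473). Only between Pnoc and Pdyn did the ranges of neighbours in this order not overlap. Oprl1 nevertheless lay above Oprm1 within each of the 8 libraries, while Penk lay above Oprl1 in 5 and Oprm1 above Pnoc in 5. The 2 rows of Oprk1, and those of Pnoc, hold identical counts, so their sum may count the same reads again. With both rows counted, 4 ranks changed: Pnoc moved above Oprm1 and Oprk1 above Pdyn. Pnoc then also exceeded Penk in 2 of 8 libraries, control replicate 6 and morphine replicate 8. Lengths are those of the annotated transcript, and a 3′ end that differs in these cells would move a gene in the order.

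The comparison of the morphine with the control group asks whether chronic morphine changed the RNA for its own receptor and for the endogenous opioids in these cells. None of the 8 genes passed the threshold of an adjusted P value under 0.05 (quasi-likelihood test of edgeR, Benjamini-Hochberg adjusted over all genes), against 0.195% of all genes tested, and in each of the 8 the groups overlapped, whereas the groups did not overlap in 6.55% of all genes. Before adjustment, 1 of the 8, Oprm1, had a P value under 0.05 and was lower with morphine, and 12.1% of all genes did (5.31% lower and 6.79% higher). DESeq2 also called 0 of the 8, against 3.29% of the genes it tested, and gave 1 an unadjusted P value under 0.05, against 12% of the genes with a P value. Log2 fold changes were above 0 in 3 genes and below 0 in 5, with a median of -0.12 against 0.0088 over all genes. In bulk RNA, fewer cells that express a gene and less RNA of it per cell cannot be told apart.

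**Figure D2:**
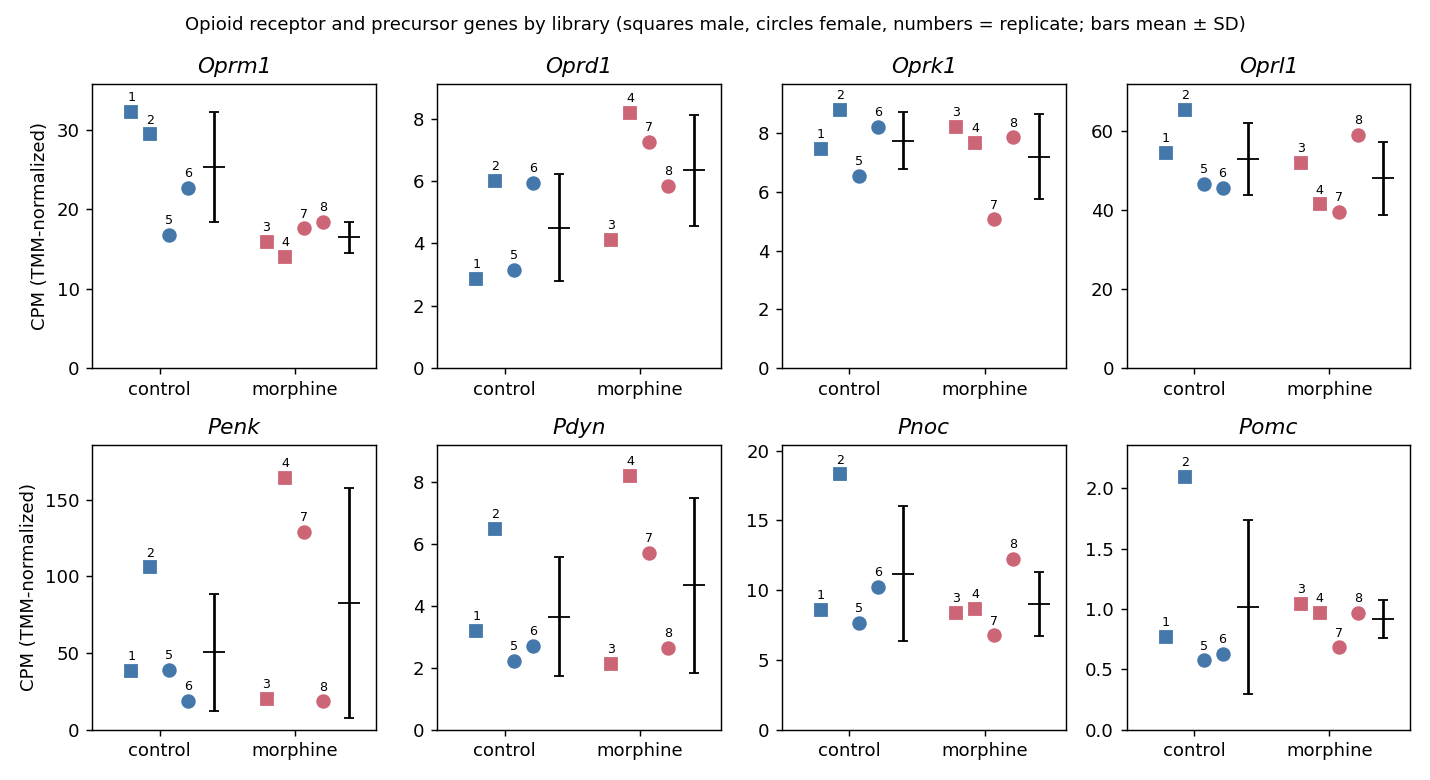
CPM of each of the 8 genes in every library, with the group mean ± SD (n = 4) beside the points; squares are male and circles female libraries and numbers give the replicate. The groups overlap in every panel, and Penk and Pdyn are highest in control replicate 2 and in morphine replicates 4 and 7.

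Oprm1, which encodes the receptor that morphine binds and whose locus drives the tag, had 32.3, 29.4, 16.8 and 22.7 CPM in control replicates 1, 2, 5 and 6 and 15.9, 14, 17.6 and 18.4 CPM in morphine replicates 3, 4, 7 and 8. The morphine libraries lay close together and all 4 lay below 3 of the control libraries, but control replicate 5 fell among them. The fitted log2 fold change was -0.62 (standard error 0.19, 95% interval -1.03 to -0.21, unadjusted P = 0.0065, adjusted P = 0.207, edgeR), and the exact two-sided permutation test gave P = 0.0857. With 1 library left out, the log2 fold change ran from -0.49 without control replicate 1 (edgeR adjusted P = 0.522) to -0.79 without control replicate 5 (edgeR adjusted P = 0.0736). With DESeq2 and all libraries the adjusted P value was 0.0596. With the scores of 2 marker lists that stood higher in the morphine group, the value came nearer to 0: it was -0.42 (standard error 0.31) with the choroid plexus score in the model and -0.49 (standard error 0.32) with the score of telencephalic pyramidal neurons.

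Oprm1 was also compared within each sex. Male controls had 32.3 and 29.4 CPM and male morphine libraries 15.9 and 14 CPM, so that both male morphine libraries held less than both male controls, with a log2 ratio of means of -1.05. Female controls had 16.8 and 22.7 CPM and female morphine libraries 17.6 and 18.4 CPM, which lay within the range of the female controls, with a log2 ratio of -0.14. Without control replicate 5 the only female control is the one at 22.7 CPM, both female morphine libraries lay below it, and the log2 ratio was -0.34. The interaction of sex and morphine, tested on 2 libraries per sex and condition, had a log2 value of 0.91 (standard error 0.27, unadjusted P = 0.00524, edgeR) and an adjusted P value of 1.00, so it did not pass over all genes. An unadjusted P value under 0.05 for the interaction was found in 1 of the 8 genes and in 1.72% of all genes. Without control replicate 5, which leaves 1 female control library that is assumed to vary like the others, the interaction was 0.71 (standard error 0.29, unadjusted P = 0.0310, edgeR), with 1.64% of all genes under an unadjusted 0.05. DESeq2 with all libraries gave 0.91 (standard error 0.30, unadjusted P = 0.00264), with 1.29% of all genes under an unadjusted 0.05 and 0.0211% called.

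Oprl1, the nociceptin receptor gene and the most abundant receptor RNA per length, had 54.6, 65.3, 46.6 and 45.6 CPM in control replicates 1, 2, 5 and 6 and 52.0, 41.4, 39.6 and 59.1 CPM in morphine replicates 3, 4, 7 and 8. Low and high libraries occurred in both groups. Its log2 fold change was -0.14 (standard error 0.15, 95% interval -0.48 to 0.20, edgeR adjusted P = 0.724). It was -0.26 without morphine replicate 8, -0.025 without control replicate 2 and 0.070 (standard error 0.26) with the telencephalic score in the model.
Oprk1, the receptor gene for dynorphins, had between 6.55 and 8.78 CPM in the control libraries and between 5.07 and 8.21 CPM in the morphine libraries. The single low value was that of morphine replicate 7, and without it the log2 fold change of -0.10 (standard error 0.17, 95% interval -0.48 to 0.27, edgeR adjusted P = 0.842) became 0.011.
Oprd1, the receptor gene for enkephalins, had 2.87, 6.01, 3.16 and 5.95 CPM in control replicates 1, 2, 5 and 6 and 4.10, 8.17, 7.24 and 5.84 CPM in morphine replicates 3, 4, 7 and 8. The controls fell into a low and a high pair, morphine replicates 3 and 8 lay between the pairs, and morphine replicates 4 and 7 lay above all controls. Its log2 fold change was 0.49 (standard error 0.29, 95% interval -0.13 to 1.12, edgeR adjusted P = 0.536). It was -0.33 (standard error 0.40) with the telencephalic score in the model and -0.21 (standard error 0.40) with the choroid plexus score. The fitted direction thus turned with either, but each value lay within its standard error of 0.

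The intervals of the log2 fold changes of the 4 receptors limit what went undetected. For Oprl1 and Oprk1, changes beyond 0.48 on the log2 scale in either direction lay outside the 95% interval, whereas for Oprd1 an increase up to 1.12 lay within it. These intervals are not corrected for the number of genes.

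Penk, the precursor of the enkephalins, was the least even of the 8 genes. It had 38.3, 106, 38.8 and 19.0 CPM in control replicates 1, 2, 5 and 6 and 19.9, 164, 129 and 18.4 CPM in morphine replicates 3, 4, 7 and 8. Control replicate 2 and morphine replicates 4 and 7 were high, and the range between libraries was 8.93-fold. The SD of its log2 CPM within groups was 1.40, higher than in 99.9% of the 13703 genes that reached 10 counts in all libraries, whose median was 0.19. The log2 fold change was 0.71 (standard error 0.69, 95% interval -0.81 to 2.23, edgeR adjusted P = 0.684; exact two-sided permutation test, P = 0.80). Leaving out 1 library moved it from 0.14 (without morphine replicate 4) to 1.37 (without control replicate 2).

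Pdyn, the precursor of the dynorphins, was high in the same 3 libraries at a far lower level. It had 3.20, 6.48, 2.22 and 2.71 CPM in control replicates 1, 2, 5 and 6 and 2.14, 8.20, 5.71 and 2.65 CPM in morphine replicates 3, 4, 7 and 8. Its spread within groups (SD 0.79 on the log2 scale) was above that of 98.2% of genes. Between the groups its log2 fold change was 0.35 (standard error 0.44, 95% interval -0.61 to 1.30, edgeR adjusted P = 0.777), and it turned to -0.073 without morphine replicate 4 and rose to 0.78 without control replicate 2.

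The genes most like Penk and Pdyn were looked for among the other 13702 genes that reached 10 counts in all libraries, by Pearson's r of log2 CPM over the 8 libraries after each group's mean had been taken away. These r values describe the 8 libraries and share their depth and dissections, so no P value is given. Those most like Pdyn were Ptpn5 (r = 0.990), which encodes a phosphatase enriched in the striatum, Chrdl1 (r = 0.979) and Adcy5 (r = 0.963), the main adenylyl cyclase of striatal projection neurons. Those most like Penk were Epor (r = 0.993), which encodes the erythropoietin receptor, Gm10754 (r = 0.985) and Serpina9 (r = 0.976), and Pdyn ranked 34 (r = 0.925). For the other 6 opioid genes, r with Penk lay between -0.35 for Oprk1 and 0.50 for Oprd1.

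Markers of striatal projection neurons were, like Penk, high in morphine replicates 4 and 7, and in control replicate 2 they differed among themselves. There, the log2 CPM lay above its mean over the 8 libraries by 1.43 for Adora2a, by 0.048 for Pde10a and by 0.073 for Rarb, and that of Six3 stood at -0.27. Adora2a, the adenosine receptor of the striatal neurons that express Penk, had 9.43, 28.9, 19.1 and 3.64 CPM in control replicates 1, 2, 5 and 6 and 5.17, 79.4, 66.0 and 0.288 CPM in morphine replicates 3, 4, 7 and 8. Drd1a, the dopamine D1 receptor gene of the striatal neurons that express Pdyn, had 24.1, 48.6 and 34.1 CPM in control replicate 2 and morphine replicates 4 and 7 and at most 12.9 CPM elsewhere. Of the 10 striatal markers, 9 had an r with Penk above 0.8, and the exception was Six3 (r = 0.623). With Pdyn, 5 of the 10 had an r above 0.8, and r ran from 0.346 for Six3 to 0.881 for Drd1a. Their summed CPM was 416 to 735 in the control group and 227 to 1839 in the morphine group, and none of the 10 was at 0. With the striatal marker score in the model, an alternative added after the data had been seen, the log2 fold change of Penk was 0.12 (standard error 0.28) and that of Pdyn was 0.14 (standard error 0.30), and since the striatal markers were already seen to follow Penk, this is a description and no test. That of Oprm1 was -0.61, close to its value without the score.

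**Figure D3:**
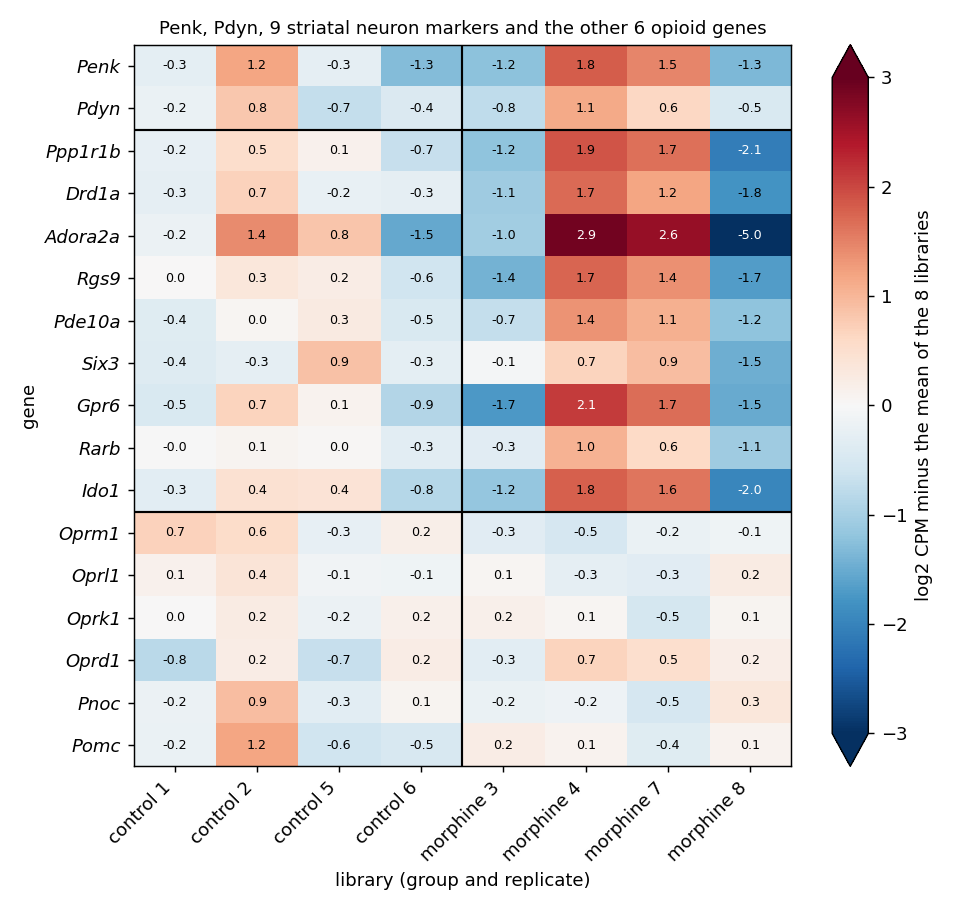
Difference of log2 CPM from the mean of the 8 libraries for Penk and Pdyn (top), 9 of the 10 striatal neuron markers (middle) and the other 6 opioid genes (bottom), with colours capped at 3 in either direction. Penk, Pdyn and the striatal markers shown are high in morphine replicates 4 and 7 and low in morphine replicates 3 and 8, with Six3 near its mean (-0.065) in morphine replicate 3, a pattern that the 4 receptor genes do not share to that extent.

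Pnoc, the precursor of nociceptin, had 8.56, 18.3, 7.67 and 10.2 CPM in control replicates 1, 2, 5 and 6 and 8.35, 8.66, 6.75 and 12.2 CPM in morphine replicates 3, 4, 7 and 8. Control replicate 2 stood above the rest. The log2 fold change was -0.31 (standard error 0.27, 95% interval -0.91 to 0.28, edgeR adjusted P = 0.677) with all libraries, 0.033 without control replicate 2 and -0.90 (standard error 0.43) with the choroid plexus score in the model. The genes most like Pnoc were Atp9a (r = 0.997), B3gnt1 (r = 0.995) and Srprb (r = 0.995).
Pomc, the precursor of beta-endorphin and of melanocortins, had between 21 and 93 counts per library, the fewest of the 8 genes. Control replicate 2 had 2.09 CPM, with an exact 95% Poisson interval of 1.69 to 2.56 that covers counting error only, against 0.574 to 0.769 CPM in the other control libraries and 0.682 to 1.04 CPM in the morphine libraries. Its change on the log2 scale, -0.16 (standard error 0.41, 95% interval -1.05 to 0.74, edgeR adjusted P = 0.903), became 0.48 without control replicate 2.
Control replicate 2 was the highest control library in all 4 precursors, and also in the receptor genes Oprl1, Oprk1 and Oprd1. In this library Pmch, the precursor of melanin-concentrating hormone in the lateral hypothalamus, had 21.1 CPM, against 0.102 to 4.71 CPM in the other control libraries, and 18.1 CPM in morphine replicate 4. The summed CPM of 14 markers of hypothalamic peptide neurons was 45.3 to 146 in the control group, highest in control replicate 2. In the morphine group it was 92.4 to 134. In control replicate 2, Sst made up 55.1 CPM of this sum and Cartpt 20.4 CPM. Of the 14 genes, Npy, Sim1, Gal, Oxt and Avp were higher in another control library. The rest were highest among the controls in control replicate 2. Agrp, which marks neurons beside those that express Pomc, was at most 0.203 CPM, in control replicate 2. The part of such cells in the level of Pomc was not tested.

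**Figure D4:**
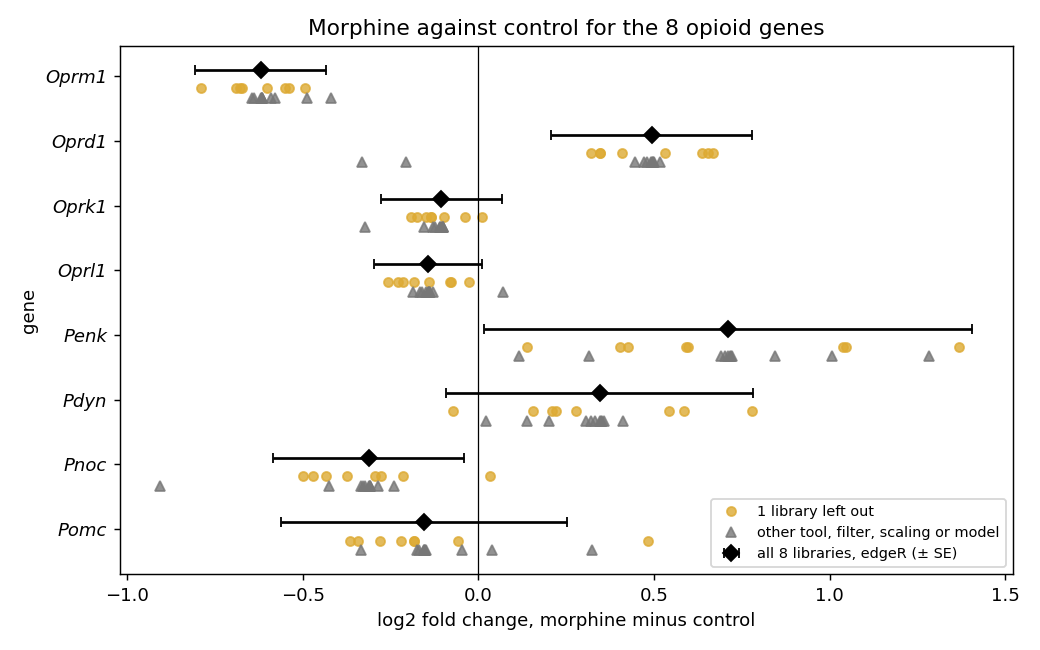
Log2 fold change (morphine minus control) of the 8 genes with all libraries (black diamonds, ± standard error, edgeR), with each library left out in turn (yellow circles) and under the other tools, filters, scalings and models (grey triangles). Oprm1 stays below 0 and Penk above 0 throughout, and the other 6 genes each cross 0 at least once.

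For the 7 genes besides Oprm1, the interaction of sex and morphine had unadjusted P values of 0.137 to 0.921 (edgeR), and of 0.195 to 0.597 without control replicate 5. Female and male libraries, compared with condition in the edgeR model, differed in 0 of the 8 genes at an adjusted or an unadjusted P value under 0.05, against 0.00528% and 3.1% of all genes. Pomc came nearest, with a log2 fold change (female minus male) of -0.77 (standard error 0.36, unadjusted P = 0.0513, adjusted P = 1.00), and it was -0.64 without control replicate 5, where 0.0265% of all genes passed after and 2.63% before adjustment. For Penk the log2 fold change (female minus male) was -0.82 (standard error 0.64, edgeR unadjusted P = 0.225) and -0.91 (standard error 0.76, edgeR unadjusted P = 0.252) without control replicate 5, and the sexes overlapped.

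The same measure of likeness was taken for the receptor genes and Pomc, again as a description of 8 libraries. Those most like Oprm1 were Odz1 (r = 0.961), which encodes a teneurin, Tmie (r = 0.958) and Rwdd3 (r = 0.954). Those most like Oprl1 were Hemk1 (r = 0.988), Zan (r = 0.981) and Gm19619 (r = 0.978). For Oprk1 they were D630023F18Rik (r = 0.995), 0910001L09Rik (r = 0.975) and Pirt (r = 0.956), and for Oprd1 Chsy3 (r = 0.983), Adap1 (r = 0.978) and Abhd2 (r = 0.976). For Pomc they were Preb (r = 0.972), Matk (r = 0.970) and Tmem17 (r = 0.969).

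Around the receptors and precursors, 4 lists of genes were followed, which together named 68 genes of the table. Of these, 1 was called by edgeR, against 0.195% of all genes, and 12 had an unadjusted P value under 0.05, against 12.1% of all genes. The called gene was Fos, an immediate early gene whose product binds the regulatory regions of Penk and Pdyn. It fell from 96.6, 94.7, 74.1 and 94.1 CPM in control replicates 1, 2, 5 and 6 to 52.4, 50.6, 45.4 and 39.0 CPM in morphine replicates 3, 4, 7 and 8 (log2 fold change -0.94, standard error 0.12, edgeR adjusted P = 0.0176), with no overlap of the groups. With 1 library left out its log2 fold change stayed between -1.04 and -0.86, and it was not called without control replicate 1 or without morphine replicate 4, 7 or 8 (edgeR adjusted P = 0.0550 to 0.0905). With the choroid plexus score in the model its log2 fold change was -0.84 (standard error 0.20), and with the telencephalic score -0.93 (standard error 0.20). It was not called in either model, but these models called only 0 and 1 of all genes. The choroid plexus score did not overlap between the groups, so that model can hardly part the score from morphine. Of the other 14 regulators of precursor transcription none was called by edgeR. Npas4, an activity-dependent transcription factor, averaged 15 ± 4.84 CPM (SD over 4 libraries) with saccharin and 6.61 ± 2.67 CPM (SD over 4 libraries) with morphine (log2 fold change -1.18, edgeR adjusted P = 0.152), and Jun had a log2 fold change of 0.26 (edgeR adjusted P = 0.379). The median of this list was -0.15, with 6 genes above 0 and 9 below.

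Of the 18 genes for the processing of prohormones, 18 had a fitted log2 fold change above 0, with a median of 0.16 against 0.0088 over all genes, but none was called by edgeR. Of these, Cpz was all but absent (0.00563 CPM in the control group and 0.00514 CPM in the morphine group), so its direction cannot be read, and with filterByExpr, 17 of 17 genes were above 0. This count of 18 held under the other scalings, but it was 3 with the choroid plexus score in the model (median -0.25) and 12 with the telencephalic score. It was 12 without control replicate 1, 13 without control replicate 5 (median 0.079), 14 without control replicate 6 and 10 without morphine replicate 8 (median 0.067), and the median was 0.51 without control replicate 2. The lowest P values were those of Cpd, a carboxypeptidase (log2 fold change 0.56, edgeR adjusted P = 0.185), Chgb, a granin of secretory granules (0.64, adjusted P = 0.341), and Cpe, carboxypeptidase E, which trims basic residues from the cut peptides (0.42, adjusted P = 0.363). Cpe averaged 342 ± 86.3 CPM (SD over 4 libraries) with saccharin and 459 ± 81.6 CPM (SD over 4 libraries) with morphine, with control replicate 2 at 470 CPM among the morphine values. Genes for the breakdown of opioid peptides were split, with 7 above 0 and 7 below, a median of 0.00065 and 0 called. Mme, neprilysin, which cleaves enkephalins, had 8.49, 14.6, 13.0 and 8.33 CPM in the control libraries and 15.2, 16.0, 14 and 16.5 CPM in the morphine libraries (log2 fold change 0.47, edgeR adjusted P = 0.330), followed by Lnpep (0.21, adjusted P = 0.420) and Ace (0.43, adjusted P = 0.512).

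Of 21 genes for partners of opioid receptors, 10 had a log2 fold change above 0 and 11 below, with a median of -0.0027, and edgeR called 0. The lowest P values were those of 2 genes for receptor-associated sorting proteins. Gprasp2 had 218, 179, 235 and 169 CPM in control replicates 1, 2, 5 and 6 and 145, 136, 133 and 143 CPM in morphine replicates 3, 4, 7 and 8 (log2 fold change -0.52, standard error 0.11, edgeR adjusted P = 0.0917). Every morphine library lay below every control library. Gprasp1 had a log2 fold change of -0.43 (edgeR adjusted P = 0.198), and Gpm6a, a membrane glycoprotein, of 0.48 (edgeR adjusted P = 0.285). DESeq2, which called 3.29% of the genes it tested, called 4 of the 68, which were Fos, Npas4, Gprasp2 (adjusted P = 0.00428) and Cpd (adjusted P = 0.0473).

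Markers of other cells that the dissection could hold moved with the groups in part. The mean log2 CPM of 13 choroid plexus markers, led by Ttr and Enpp2, was higher by 1.9 in the morphine group, and that of 8 dentate gyrus markers, led by Stxbp6 and Calb1, by 1.02, both without overlap of the groups (P = 0.0286 by an exact permutation test, two-sided, which 4 libraries against 4 cannot go below, adjusted over 13 lists 0.186). Calb1 itself had a log2 fold change of -0.19, and Calb1 and Prox1 are also expressed in the thalamus. The summed CPM of the dentate list overlapped, at 699 to 873 in the control group and 644 to 954 in the morphine group. For 13 telencephalic pyramidal markers, led by Nrn1 and Slc17a7, the difference was 1.46 with overlapping groups (exact permutation P = 0.0571), with a summed 535 to 914 CPM in the control group and 954 to 1357 in the morphine group. Differences of the other lists were -0.25 for the thalamic markers (led by Tcf7l2 and Necab1), 0.25 for the medial habenula (3110047P20Rik, now Nwd2, and Lrrc55), where mu-opioid receptors are dense, and 0.15 for the striatal markers (Pde10a and Ppp1r1b). They were -0.53 for hypothalamic peptide neurons (Sst and Cartpt), -0.19 for GABAergic neurons, 0.45 for ependymal cells (Foxj1 and Rsph1), 0.52 for astrocytes (Slc1a2 and Slc1a3), 0.88 for oligodendrocytes (led by Mbp), 0.18 for microglia (with Csf1r) and -0.027 for endothelial cells (Itm2a and Flt1), with exact permutation P values from 0.0857 to 0.971. Of the 16 thalamic markers, 3 had a log2 fold change above 0, and it was -0.67 for Necab1, -0.47 for Calb2 and -0.22 for Tcf7l2. None of the markers in these lists was at 0 in all 8 libraries. The part of these cells in the levels of the 8 genes was not tested.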

How the data were processed

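The authors deposited raw counts of reads, as whole numbers, for RefSeq transcripts. Per the labels the build is mm10, and DESeq2 is named in the submitters' processing notes. The study's methods describe Salmon and tximport, whose gene-level matrix is not this table, and the tool that made the table is not given in the sources used here. For each gene the row with the highest total was used. All 8 columns were matched to samples by title, and 0 columns were left out. Counts were normalized by TMM and tested with edgeR 4.0.16 (R 4.3.3, glmQLFit and glmQLFTest) on 18939 genes, with condition as the term and Benjamini-Hochberg adjustment. The quasi-likelihood test was checked on simulated data with changes larger than those fitted for the 8 genes, so the check does not cover smaller changes. Exact permutation tests of single genes used log2(CPM + 0.5), and those of marker lists used mean log2 CPM (prior count 2).

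Alternatives were DESeq2 1.42.0, limma-voom (limma 3.58.1), a minimum of 10 counts in all libraries, filterByExpr, upper-quartile and RLE factors, sex or a marker score as a term, the sum over rows and each library left out. The 8 genes and all lists (13 of markers, 4 of pathway genes) were chosen with earlier results of these data known. Genes named are the 8, the 3 genes most like each, called pathway genes and the 3 with the lowest P value of each pathway list, and the 2 most abundant of each marker list. Cpz and some marker genes (Calb2, Adora2a, Drd1a, Six3, Rarb, Pmch, Agrp, Npy, Sim1, Gal, Oxt, Avp, Prox1) were named after their values had been seen. Of the pathway symbols, 1 (Nherf1) was not matched. Coordinates are RefSeq's on GRCm38.p6, and transcript lengths and coding sequences are those of GENCODE M21. Figures were drawn with matplotlib 3.10.9. Some genes and sequences are not reported here. The Salmon matrix and the reads were not used here.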

Additional observations from a re-analysis of the deposited data

Results flagged for a closer look

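Within groups of 4 libraries, 42 sets of values were examined for a sample far from the others (16 of the 8 genes and 26 of the marker lists), and 2 stood out, where chance gives about 1 in 20. Both were those of control replicate 2. Its level of Pomc was 2.09 CPM, and its gap to the nearest of the other controls was 0.871 of the whole range. Its mean log2 CPM of the 8 endothelial markers was 0.27, where the gap was 0.950 of the whole range.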

How the results depend on the processing

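None of the 8 genes was called under any of the 19 alternatives, and 143 of the 152 resulting log2 fold changes kept their direction. With the telencephalic score in the model that of Oprd1 was -0.33, that of Oprl1 0.070 and that of Pomc 0.32, and with the choroid plexus score that of Oprd1 was -0.21. With limma-voom that of Pomc was 0.039. Leaving out 1 library gave 0.011 for Oprk1 (without morphine replicate 7), -0.073 for Pdyn (without morphine replicate 4), 0.033 for Pnoc and 0.48 for Pomc (both without control replicate 2). The range with 1 library left out was -0.79 to -0.49 for Oprm1, 0.32 to 0.67 for Oprd1, -0.19 to 0.011 for Oprk1, -0.26 to -0.025 for Oprl1, 0.14 to 1.37 for Penk, -0.073 to 0.78 for Pdyn, -0.50 to 0.033 for Pnoc and -0.37 to 0.48 for Pomc. The number of genes called among all, 37, was 502 with DESeq2, 14 with filterByExpr, 15 with at least 10 counts in every library, 110 with sex in the model, 1 with the telencephalic, 0 with the choroid plexus and 18 with the striatal score, 23 with limma-voom, 22 with the sum over transcripts and 0 to 77 with 1 library left out. Of the pathway genes, 4 were called with DESeq2 and 0 to 1 with 1 library left out. The sum over transcripts changed 4 ranks in the order of levels. The interaction of Oprd1 was 0.060 with all libraries and -0.33 without control replicate 5. The cause of these shifts was not tested. No paired analysis was possible because the groups share no replicate number. Counts of Pomc (21 to 93 per library) and Pdyn (76 to 288) were low. For Pdyn the exact 95% Poisson interval was 1.68 to 2.67 CPM in morphine replicate 3 and 7.26 to 9.24 CPM in morphine replicate 4. The part of counting error in the spread of these 2 genes was not tested.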
